A study of Mus musculus with 24 samples.

Results

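The genes described here mark antibody-secreting plasma cells and the B cell steps that precede them: Igj (now Jchain), Irf4, Prdm1, Tnfrsf17 and Sdc1. They were found as all noncontrol array probes that name one of the 5 genes by symbol, older symbol or RefSeq accession, which gave 6 of 41174 probes. All 5 genes passed the filter on dim probes, out of 18070 genes tested, and Igj has 2 probes.

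Plasma cells arise when an activated B cell gives up its B cell identity and turns to secretion of antibody. IRF4 and BLIMP-1 (the product of Prdm1) are transcription factors that drive this step, and the J chain links IgM or IgA units into polymers. Class switch recombination exchanges the IgM constant region for another class. In the non-obese diabetic (NOD) mouse, B and T lymphocytes enter the islets of Langerhans during autoimmune diabetes.

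Islets were isolated with collagenase from single female NOD/LtJ mice aged 10 days, 4 weeks, 12 weeks or 20 weeks, and each age group held 6 animals. Each NOD sample (Cy5) was hybridised with a pool of islet RNA from 6 age-matched female NOD.B10Sn-H2b/J mice (Cy3), a congenic strain on the NOD background that carries the H2b haplotype. All 24 two-colour arrays ran in the same dye orientation. Each age has 1 pool, so that a test of the ratio leaves out the spread among control animals, and a dye effect is not removed from a ratio at 1 age. Differences between ages drop a constant dye effect but include any difference between pools.

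The NOD channel was above background for 42.3 to 64.6% of spots, and the pool channel for 39.3 to 60.4%. Ratios of arrays of the same age correlated at 0.19 to 0.90 across probes. For 11 pairs of arrays of different ages the correlation was below -0.3, with a lowest value of -0.54. The direction of every ratio rests on the dyes given in the labels. Beta cell markers (7 to 8 of 8) and acinar markers (9 of 9) were above background on the arrays of each age, so the preparations held islet and exocrine RNA. The 20-week mice 5 and 6 stood apart, with mean beta cell marker log2 ratios of -3.42 and -1.66, against -1.11 to -0.68 in the other 4 mice, and with acinar marker ratios of 2.08 and 1.51, against -2.29 to -0.25. Some results at 20 weeks are therefore also given without these 2 mice, and the others rest on all 6 mice.

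The probe sequences are shown because each value below is the signal of 1 such oligonucleotide, and they fix which part of each transcript was read. The first 30 bases of each probe, in mm9 coordinates from the array files, are as follows, with the brighter Igj probe listed first.
Igj, chr5:88949949-88949978, minus strand: ctgtactagtctttctcttaacctctcact
Igj, chr5:88950119-88950148, minus strand: gtaaatcctcatgtctgctcaaggagatat
Irf4, chr13:30858459-30858488, plus strand: gacccattttcagtgctttgaggaacatga
Prdm1, chr10:44157321-44157350, minus strand: taggttaaccaaagcatgacctgacattga
Tnfrsf17, chr16:11320045-11320074, plus strand: tagataatgagcttcctaactggtgtgaag
Sdc1, chr12:8799383-8799412, plus strand: atctgtatggtgccccatttttggcggccc

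The promoters of Igj and Irf4 are shown because these genes carried the highest NOD ratios of the members at 20 weeks. The 250 bases upstream of each start come from RefSeq on GRCm38.p6, and capitals mark a match to an NF-kappaB-like motif (GGGA, then any 4 bases, then CC). All 5 genes had a promoter entry.
Igj, chr5:88527898-88528147, minus strand: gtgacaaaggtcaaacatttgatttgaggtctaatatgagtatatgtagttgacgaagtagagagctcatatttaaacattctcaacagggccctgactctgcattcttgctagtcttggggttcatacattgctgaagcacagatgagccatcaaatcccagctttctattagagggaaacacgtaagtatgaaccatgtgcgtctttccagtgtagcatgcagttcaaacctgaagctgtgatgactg
Irf4, chr13:30748983-30749232, plus strand: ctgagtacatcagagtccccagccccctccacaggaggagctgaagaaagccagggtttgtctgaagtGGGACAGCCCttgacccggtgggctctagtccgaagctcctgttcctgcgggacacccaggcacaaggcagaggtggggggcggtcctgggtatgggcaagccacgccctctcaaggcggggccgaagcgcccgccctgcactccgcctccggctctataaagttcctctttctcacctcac

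Both strands were searched for 5 motifs. The Irf4 match starts 182 bases before the start site, and Sdc1 has a match to the same motif 79 bases before its start. This motif is in 17.6% of 32851 promoter windows of this length. Tnfrsf17 has a match to an interferon-response-like motif (GAAA, any 2 bases, GAAA; in 2.98% of windows) on the other strand, 101 bases before its start. The Igj and Prdm1 windows hold no match to these motifs, to the octamer ATGCAAAT (1.60% of windows), to an Ets-Irf composite (GGAA, any 2 bases, GAAA; 2.30%) or to the XBP1-type motif CCACGTCA (0.563%). The Ets-Irf and interferon-response motifs share letters and can overlap. A match is a description of letters, not a binding site.

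Values below are log2(NOD/pool) unless a channel is named, and a gene was called where limma's moderated test gave a Benjamini-Hochberg adjusted p under 0.05 and a change of at least 2-fold. At 12 weeks and at 20 weeks Igj was the member called of the 5, while 2.09% and 3.86% of all genes tested were called higher at those ages. Irf4 was higher in NOD islets in all 6 mice at both ages but stayed under the 2-fold floor. By adjusted p alone, 2 members were higher at 12 weeks and 4 at 20 weeks, against 21.4% and 23.9% of all genes. By the same rule 1 member, Sdc1, was lower at 12 weeks (-0.58, limma adjusted p = 0.0227), and the share of all genes lower is not given. Irf4, counted at both ages, and Tnfrsf17, counted at 20 weeks, passed the filter on dim probes only with late arrays. These counts are therefore not independent of that filter. At 10 days and at 4 weeks 0 members were called by limma, with 1 member at each age under an unadjusted p of 0.05. The genes called higher and lower made up 1.62% and 2.36% of those tested at 10 days and 1.91% and 0.88% at 4 weeks. In bulk RNA, a change in the number of cells of a type and a change in RNA per cell cannot be told apart.

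**Figure D1:**
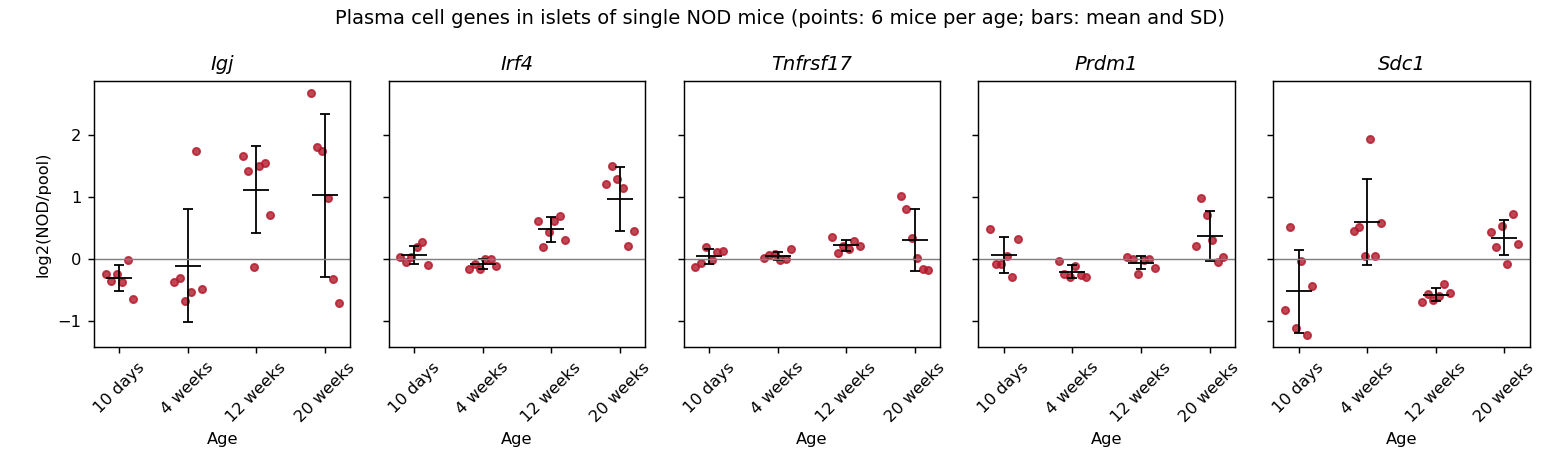
log2(NOD/pool) of the 5 genes in each of 6 NOD mice per age (points) with the group mean (bar), from 10 days to 20 weeks. Igj ranges from -0.71 to 2.67 at 20 weeks, Irf4 is above 0 in all 6 mice at 12 and 20 weeks, and Sdc1 changes sign between successive ages.

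Irf4 encodes a transcription factor that is induced by antigen receptor signalling in B and T cells and is required for plasma cells. Its ratio in NOD mice 1 to 6 was 0.02, -0.05, 0.03, 0.19, 0.27 and -0.10 at 10 days, and between -0.17 and 0.01 at 4 weeks. At 12 weeks the 6 values were 0.60, 0.20, 0.43, 0.61, 0.69 and 0.30, and at 20 weeks they were 1.20, 1.49, 1.29, 1.14, 0.20 and 0.44. Every 12-week mouse was above every 4-week mouse, though at 4 weeks the probe was below background in both channels. Here and below, the share of all genes whose mice separate in this way between ages was not counted. At 20 weeks mice 5 and 6 lay lowest and overlapped with the 12-week mice.

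The mean Irf4 ratio was 0.47 ± 0.19 at 12 weeks (SD, n = 6, limma adjusted p = 0.00195) and 0.96 ± 0.51 at 20 weeks (adjusted p = 3.48e-07), just under the floor of 1. The Irf4 probe was not well above background in the pool channel at any age, whereas NOD islets passed on 6 of 6 arrays at 12 weeks and 5 of 6 at 20 weeks. The ratios are thus lower bounds, of at least 1.38-fold at 12 weeks and at least 1.95-fold at 20 weeks. Such a bound sets the mean of the bright channel against the higher of the dim signal and the lowest signal that passed on each array. Irf4 passed the filter on dim probes through the NOD channel alone, and only with arrays of the late ages. Its p-values, here and between ages, are therefore not independent of that filter, which favoured a high NOD signal at those ages. Without mice 5 and 6 the 20-week mean was 1.28 and passed both criteria (limma adjusted p = 7.84e-11). With a background offset of 10 in place of 50, Irf4 was also called, at 1.13 at 12 weeks and 1.74 at 20 weeks.

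Between ages, the Irf4 ratio differed by 0.56 for 12 weeks minus 4 weeks (limma adjusted p = 0.00816), by 0.49 for 20 minus 12 weeks (adjusted p = 0.0265) and by 0.90 for 20 weeks minus 10 days (adjusted p = 4.99e-05). All 3 were under the floor. Other settings called some of them: 12 weeks minus 4 weeks with offset 10 (1.37) and with the scanner's log ratios (2.82), and 20 weeks minus 10 days with offset 10 (1.59), scanner ratios (2.94), median centring (1.02) and without mice 5 and 6 (1.22). In the NOD channel alone the log2 level averaged 6.17, 5.98, 6.83 and 6.94 from the youngest to the oldest mice, where 4-week islets were below background, so that 12-week islets were at least 1.73-fold higher than 4-week islets. The 12-week and 4-week NOD levels did not overlap, while the 20-week levels overlapped with those of 12 weeks and of 10 days. At 10 days the probe passed on 2 of 6 NOD arrays, so no order is read between the early ages.

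Prdm1 encodes BLIMP-1, a repressor that shuts down the B cell program and that effector T cells also express. It was above background in both channels on all arrays. Its ratio averaged 0.07 ± 0.29 at 10 days, -0.21 ± 0.10 at 4 weeks and -0.06 ± 0.11 at 12 weeks (SD, n = 6 each). At 20 weeks the mice had 0.21, 0.99, 0.71, 0.31, -0.05 and 0.03, with mice 2 and 3 highest and mice 5 and 6 near 0. The 20-week mean of 0.37 ± 0.40 had a limma adjusted p of 0.0047 and was under the 2-fold floor, and it was 0.55 without mice 5 and 6. The difference for 20 minus 12 weeks was 0.43 (limma adjusted p = 0.0303), also under the floor.

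Igj encodes the J chain, which plasma cells and plasmablasts make along with IgM and IgA. In the NOD channel Igj was the member with the widest change of level: 12-week islets stood 36.6-fold above 4-week islets (log2 difference 5.20, limma adjusted p = 2.63e-07) and 20-week islets 49.0-fold above 10-day islets (log2 difference 5.61, adjusted p = 7.45e-08). The NOD signal of Igj was above background on 1 of 6 arrays at 4 weeks and 3 of 6 at 10 days, so both folds rest on a signal near background at the younger age. The pool channel moved the same way, by 15.7-fold and 19.4-fold, which has no test because each age has 1 pool. These folds are of the brighter Igj probe. The other Igj probe gave smaller ones, 10.5-fold and 16.7-fold in NOD islets and 5.16-fold and 6.83-fold in the pools. The log2 levels were 6.41, 6.46, 11.66 and 12.03 in NOD islets and 6.72, 6.57, 10.54 and 11 in the pools, in order of age. No 12-week NOD mouse overlapped with a 4-week one, and no 20-week mouse with a 10-day one, while neighbours within each pair of early or late ages overlapped.

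In that channel 1 of the 5 members, Igj, was called higher for 12 weeks minus 4 weeks and 1 for 20 weeks minus 10 days, where 4.31% and 3.43% of all genes were called higher, and 0.919% were called lower in the first of these. At 12 and 20 weeks the NOD channel was above background for Igj on all 6 arrays, and the pool was so on all 6 at each age. At 10 days mouse 5 had a high signal in both channels, 7.41 in NOD and 7.43 in the pool.

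**Figure D2:**
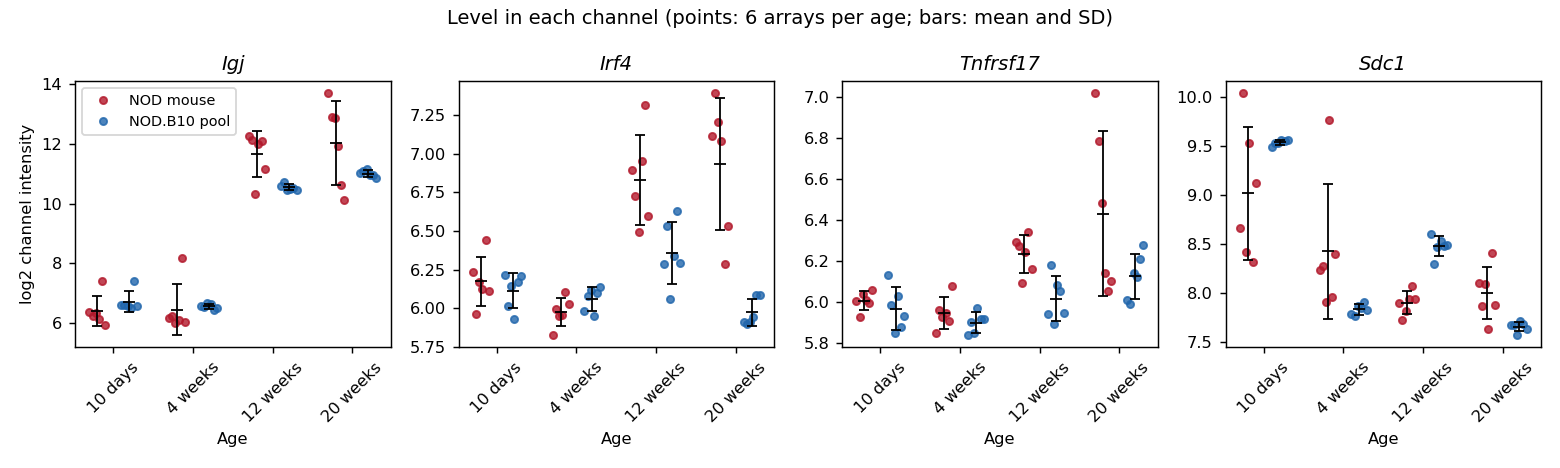
log2 intensity of Igj, Irf4, Tnfrsf17 and Sdc1 in each channel after normalization across arrays, NOD mice to the left of the pool at each age. Igj is near 6.5 in both channels at 10 days and 4 weeks and above 10 in the means of both at 12 and 20 weeks, and the pool points of an age are repeat measurements of 1 RNA.

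The Igj ratio was much smaller than this change of level. At 10 days mice 1 to 6 had -0.24, -0.36, -0.24, -0.38, -0.01 and -0.64, with a mean of -0.31 ± 0.21 (SD, n = 6, limma adjusted p = 0.47). At 4 weeks they had -0.37, -0.31, -0.68, -0.54, 1.74 and -0.49. Mouse 5 alone was above 0 at 4 weeks, and the same mouse had the highest mean over 10 B cell markers, 0.61, against -0.19 to -0.07 in the other 5.

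At 12 weeks the Igj ratios were 1.66, 1.41, -0.14, 1.5, 1.55 and 0.71, and at 20 weeks 2.67, 1.80, 1.73, 0.98, -0.33 and -0.71. Mouse 3 at 12 weeks and mice 5 and 6 at 20 weeks lay below 0, so that the ratios of late and early ages overlapped, and 20-week mouse 6 was below every younger mouse. Igj rose 2.16-fold over the pool at 12 weeks (mean 1.11 ± 0.70, limma adjusted p = 0.0122, 5 of 6 mice above 0) and 2.03-fold at 20 weeks (mean 1.02 ± 1.31, adjusted p = 0.0151, 4 of 6 mice). The other Igj probe gave means of -0.05, -0.07, 0.96 and 1.24 in order of age.

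The 12-week call held when each of the 24 mice was left out in turn (means 1.00 to 1.36). The 20-week call was lost without mouse 1 (0.70), mouse 2 (0.87) or mouse 3 (0.88) of that age, and without mice 5 and 6 the mean was 1.79 ± 0.69 (SD, n = 4, limma adjusted p = 9.11e-05). With the scanner's own log ratios, neither age passed (1.15 at 12 weeks and 1.03 at 20 weeks). Median centring gave 2.22 at 12 weeks, called, and 0.41 at 20 weeks, not called (limma adjusted p = 0.501).

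Between ages the Igj ratio rose by 1.22 for 12 weeks minus 4 weeks (SE 0.48, limma adjusted p = 0.0448) and by 1.34 for 20 weeks minus 10 days (adjusted p = 0.0220), and the difference of -0.09 for 20 minus 12 weeks did not pass (adjusted p = 0.916). In these comparisons 2.97% and 7.73% of all genes were called higher, and 4.8% were called lower in the second. The 12-week minus 4-week call stood close to the threshold and was lost in 13 of 24 fits that left out 1 mouse, with a value of 1.11 to 1.59. The 20-week minus 10-day call was lost without 20-week mouse 1 (1.01), mouse 2 (1.18) or mouse 3 (1.19), and was 2.11 without mice 5 and 6. Median centring gave 2.34 for 12 minus 4 weeks, called, and 0.51 for 20 weeks minus 10 days, not called. For 20 minus 12 weeks 0 members were called by limma, with 3 under an unadjusted p of 0.05, beside 2.01% of genes called higher and 0.404% lower. Within the slide that holds 20-week mice 1 and 2 and 12-week mice 5 and 6, the differences for 20 minus 12 weeks were 1.11 for Igj, 0.85 for Irf4, 0.67 for Prdm1, 0.65 for Tnfrsf17 and 0.79 for Sdc1. The ages of the other comparisons share no slide, so slide and age cannot be told apart there by a value within a slide.

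Tnfrsf17 encodes BCMA, a receptor for the survival factors BAFF and APRIL on plasma cells. Its probe was below background in both channels on every array at 10 days and 4 weeks. It passed the filter on dim probes through arrays of 12 and 20 weeks alone. As for Irf4, the p-values of Tnfrsf17 at these ages and between ages are therefore not independent of that filter. At 12 weeks NOD mice had 0.35, 0.09, 0.20, 0.16, 0.29 and 0.22, where the NOD channel passed on 4 arrays and the pool on none. The mean was 0.22 ± 0.09 (SD, n = 6, limma adjusted p = 0.106), a bound of at least 1.04-fold.

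At 20 weeks the Tnfrsf17 ratios were 1.01, 0.80, 0.34, 0.02, -0.16 and -0.17, so that mice 1 and 2 were high and mice 4 to 6 near or below 0. Their mean of 0.31 ± 0.50 had a limma adjusted p of 0.0187, under the floor, and was 0.54 without mice 5 and 6. In the NOD channel 20-week islets were at least 1.27-fold above 10-day islets (log2 difference 0.42, limma adjusted p = 0.00979), again under the floor.

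Sdc1 encodes syndecan-1 (CD138), a heparan sulfate proteoglycan that marks plasma cells and that epithelial cells also carry. Its ratios were -0.83, 0.51, -1.12, -0.03, -1.22 and -0.44 at 10 days and 0.45, 0.51, 0.04, 1.92, 0.05 and 0.58 at 4 weeks. They were -0.70, -0.56, -0.66, -0.59, -0.40 and -0.56 at 12 weeks, and 0.43, 0.19, 0.52, -0.08, 0.72 and 0.25 at 20 weeks. All 12-week mice were below 0 and below every mouse of 4 and of 20 weeks. The means were -0.52 ± 0.67, 0.59 ± 0.69, -0.58 ± 0.10 and 0.34 ± 0.28 in order of age (SD, n = 6 each), with limma adjusted p of 0.0295, 0.0147, 0.0227 and 0.161, all under the floor.

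The Sdc1 ratio fell by 1.17 on the log2 scale for 12 weeks minus 4 weeks (SE 0.28, limma adjusted p = 0.00222), the 1 member called lower there, beside 3.08% of all genes. The change for 20 minus 12 weeks was 0.92 (adjusted p = 0.0170) and that for 20 weeks minus 10 days 0.86 (adjusted p = 0.0115), both under the floor. Without 4-week mouse 4 the 12-week minus 4-week difference was -0.90, under the floor. Under centring of each array on its median in place of loess it was -0.032, and the 12-week ratio turned from -0.58 to 0.23.

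In the NOD channel Sdc1 fell by 1.02 on the log2 scale for 20 weeks minus 10 days (limma adjusted p = 0.0074), where 1.56% of all genes were called lower. That call was lost in 6 of 24 fits without 1 mouse (10-day mice 2, 4 and 6 and 20-week mice 2, 4 and 6, values of -0.81 to -0.99 among these). Sdc1 log2 levels averaged 9.02, 8.43, 7.90 and 8.0 in NOD islets and 9.54, 7.83, 8.48 and 7.66 in the pools, in order of age.

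Duct epithelial markers were high or low beside Sdc1 in some mice and not in others. The mean ratio over 10 duct markers was 0.81 in 10-day mouse 2 and 0.46 in 10-day mouse 4, against -0.50 to 0.17 in the other 4 mice, and 0.81 in 4-week mouse 4, the highest of its age. All 12-week mice had duct means of -1.10 to -0.73, and 20-week mouse 5, with the highest Sdc1 of its age, had 0.45. Others went the opposite way: 20-week mice 1, 2 and 3, with Sdc1 above 0, had duct means of -0.56, -0.60 and -0.09. The part of these markers in the Sdc1 ratios was not tested.

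Across the 4 ages the ratios of 4 of the 5 members differed by limma's F test: Igj (adjusted p = 0.0149), Irf4 (2.32e-05), Prdm1 (0.00773) and Sdc1 (8.45e-04), but not Tnfrsf17 (0.246). The same test passed for 76% of all genes.

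Antibody constant region genes were higher in NOD islets at the late ages. Of 12 listed genes 7 were on the array, and 4 rose at 12 weeks and 6 at 20 weeks, with list medians of 1.24 and 1.46, against 0.03 and -0.00 over all genes. Of all genes tested, 2.09% and 3.86% were called higher at these ages. Switched classes were among the antibody genes that rose: Ighg2c, the IgG2c heavy chain, averaged 2.57 ± 0.55 at 12 weeks and 3.11 ± 1.42 at 20 weeks (SD, n = 6 each, limma adjusted p = 5.05e-07 and 2.19e-08), and Ighg2b averaged 2.68 ± 0.65 and 2.75 ± 1.15. All 6 NOD mice were above 0 for both genes at both ages. The other Ighg2c probe gave lower means, 1.08 at 12 weeks and 1.76 at 20 weeks. Ighg1 had means of 1.80 and 1.22, and Ighd, the IgD chain of naive B cells, 1.00 and 1.21. The IgG subclass genes resemble each other, so a probe may also read a related transcript.

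IgM, the class that the J chain joins, varied more between mice. By its brightest probe, Ighm was 2.72, 1.93, -0.96, 1.74, 2.48 and -0.48 at 12 weeks (mean 1.24, not called). At 20 weeks it was 4.71, 3.1, 3.44, 2.46, -0.27 and 1.15 (mean 2.43 ± 1.76, limma adjusted p = 0.0041). The 12-week mice below 0 by this probe, mice 3 and 6, also had the lowest Igj ratios of that age. At 20 weeks mouse 5 was below 0 for both genes, while mouse 6, lowest for Igj at -0.71, had Ighm at 1.15. The probes of Ighm disagreed at 12 weeks, since the other 2 probes gave means of 2.67 and 1.81. By these 2 probes no mouse was below 0, with lowest values of 2.01 and 0.38 at 12 weeks and 0.85 and 0.19 at 20 weeks.

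The light chain gene Iglc3 fell in 10-day NOD islets (mean -1.52, limma adjusted p = 0.00398) and rose at 20 weeks (1.46, adjusted p = 0.00559). With each array centred on its median both calls were lost (-0.84 and 0.92), as were those of Ighm (1.78) and Ighd (0.96) at 20 weeks. Ighg3 did not pass at any age, and its 20-week values of -1.58, -1.84, 3.40, 3.97, -1.83 and 0.38 split the mice in another order from Igj.

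**Figure D3:**
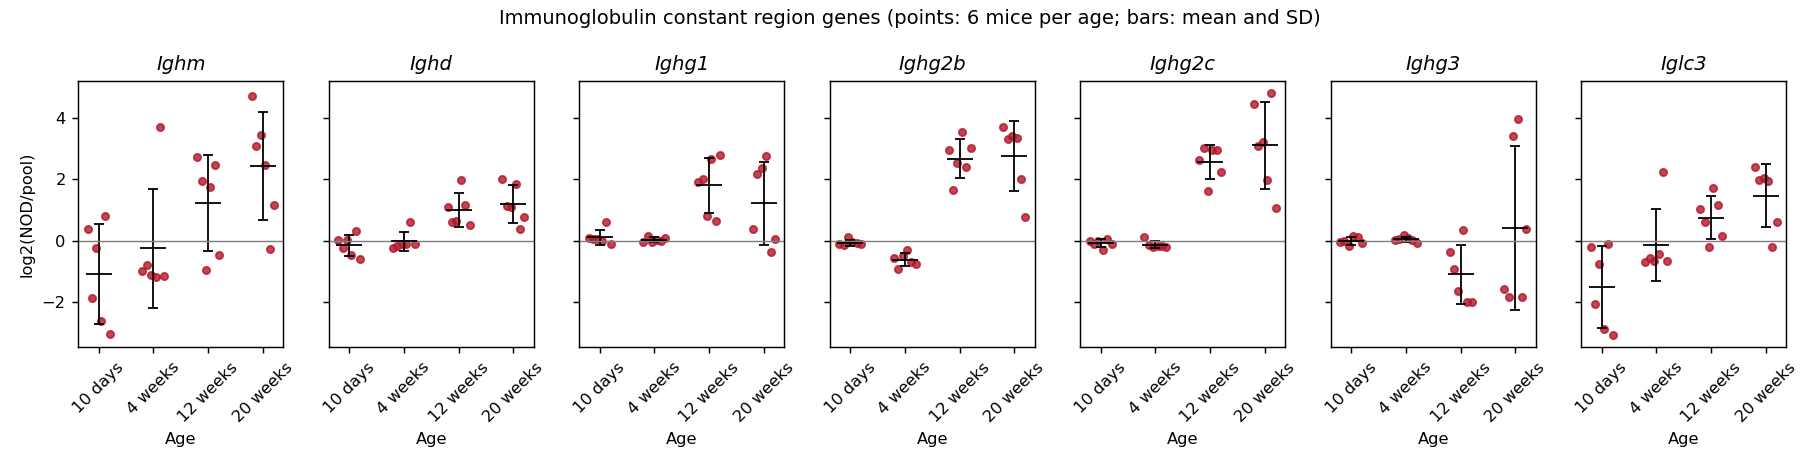
log2(NOD/pool) of 7 antibody constant region genes in each of 6 NOD mice per age, with the group mean. Ighg2b and Ighg2c are above 0 in all 6 mice at 12 and 20 weeks, while Ighg3 at 20 weeks ranges from -1.84 to 3.97.

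Class switch genes were tested as a list of their own. Of 29 class switch genes tested, 2 rose at 20 weeks, the costimulatory receptor gene Cd40 (1.47 ± 0.73, limma adjusted p = 7.21e-06) and the transcription factor Batf (2.00 ± 0.73, adjusted p = 9.16e-08), and the list median was 0.02, against -0.00 over all genes, of which 3.86% were called higher. For 20 weeks minus 10 days 5 rose and 1 fell, with a median of 0.03, beside 7.73% of all genes higher and 4.8% lower. H2ax, a histone variant that marks DNA breaks, fell at 10 days (-1.30) and 4 weeks (-1.13). Under median centring the 10-day call was lost (-0.54), the 4-week call was kept (-1.48), and the change for 20 weeks minus 10 days was -0.24 in place of a called 1.08. Ung, which encodes a uracil-DNA glycosylase, was at 0.51 at 20 weeks (adjusted p = 0.00401), under the floor.

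Genes of the secretory program of plasma cells gave a mixed picture. Of 15 tested, 5 rose at 4 weeks (Prdx4 1.32, Ell2 1.31, Derl3 1.17, Creld2 1.13 and Fkbp11 1.03), with a list median of 0.57, against -0.01 over all genes. Of all genes tested, 1.91% were called higher at 4 weeks. Prdx4, Derl3, Creld2 and Fkbp11 serve protein folding and secretion in other secretory cells too, and the mean over 9 acinar markers was 1.03 to 1.83 in the 6 mice of that age. Its part in the 4-week values was not tested. At 12 weeks Pou2af1, a B cell coactivator, rose (2.39), while the chaperone gene Hsp90b1 (-1.32) and Creld2 (-1.17) fell. At 20 weeks Pou2af1 (1.96), Mzb1 (1.62), a chaperone of antibody assembly, and Slamf7 (1.01) rose. Xbp1, the transcription factor of the secretory program, was 0.57 at 4 weeks, -0.34 at 12 weeks and -0.38 at 20 weeks, each under the floor. With each array centred on its median, the list medians of this group at 10 days, 20 weeks, 12 minus 4 weeks and 20 weeks minus 10 days changed sign, and the 12-week calls of Creld2 (0.00) and Hsp90b1 (-0.14) were lost. At 4 weeks that setting kept the call of Prdx4 (1.05) and lost those of Ell2 (0.96), Creld2 (0.92), Derl3 (0.86) and Fkbp11 (0.77).

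Another list holds receptor and ligand genes that guide plasma cells or keep them alive. Of 9 tested, 4 rose and 1 fell at 12 weeks, and 6 rose at 20 weeks, with a 20-week list median of 1.13. Over all genes 2.09% were called higher and 1.42% lower at 12 weeks, and 3.86% higher at 20 weeks. Without 20-week mice 5 and 6 the list had 7 genes higher, a count for which the share of all genes is not given. Cxcr3 had 2.42 at 12 weeks and 2.86 at 20 weeks, and Cxcr4 had 1.18 and 2.50. T cells express both receptors too, and the mean over 12 T cell markers was 1.31 to 2.19 at 12 weeks and 1.62 to 2.90 at 20 weeks. The BAFF receptor gene Tnfrsf13c had 1.23 and 2.27, the BAFF gene Tnfsf13b had 1.13 at 20 weeks, and Tnfrsf13b, the gene of the related receptor TACI, had 1.11. The gene that fell was Il6, a plasma cell survival cytokine, at -4.17 at 12 weeks, with a pool log2 level of 12.33 there. At 20 weeks Il6 was 0.86, not called, and without mice 5 and 6 it was 1.39 and called higher (limma adjusted p = 0.0318).

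Of 7 genes tested from a list of B cell factors, 2 rose at each late age: Ciita (1.57 and 1.54) and Spib (1.07 and 1.44). Of all genes tested, 2.09% were called higher at 12 weeks and 3.86% at 20 weeks. Bcl6, the germinal centre repressor that opposes Prdm1, was -0.55 at 12 weeks and 0.53 at 20 weeks, and Bach2 was 0.45 and 0.77, all under the floor. Among 4 genes of antibody transport and Fc receptors, the inhibitory receptor gene Fcgr2b rose at 20 weeks (1.75), and Pigr, which carries polymeric IgA and IgM across epithelium, was 0.27. Macrophages and dendritic cells also express Ciita and Fcgr2b, and of 9 of their markers tested 5 rose at 20 weeks, with means over the list of 0.88 to 1.88 in the 6 mice and of 0.36 to 0.98 at 12 weeks. Marker means at 20 weeks were 0.79 to 1.88 for NK cells and 0.56 to 1.83 for stellate cells and fibroblasts. The part of these markers in the ratios was not tested.

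At 20 weeks mice 5 and 6 had the lowest Igj, Prdm1, Tnfrsf17 and Irf4 ratios of the 6. They also had the lowest B cell marker means, 0.26 and 0.55, against 1.35 to 1.78 in the other 4 mice, and the lowest T cell means, 1.62 and 2.09, against 2.31 to 2.90. Sdc1 did not share this order, as mouse 5 had its highest ratio. The part of the dim NOD channels of mice 5 and 6 in these values was not tested. Without mice 5 and 6, 4 secretory genes rose and 1 fell at 20 weeks, and the list median turned to -0.16. The counts for antibody genes (6) and class switch genes (2) were the same. The share of all genes called without these mice is not given here, so these counts have no background beside them.

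**Figure D4:**
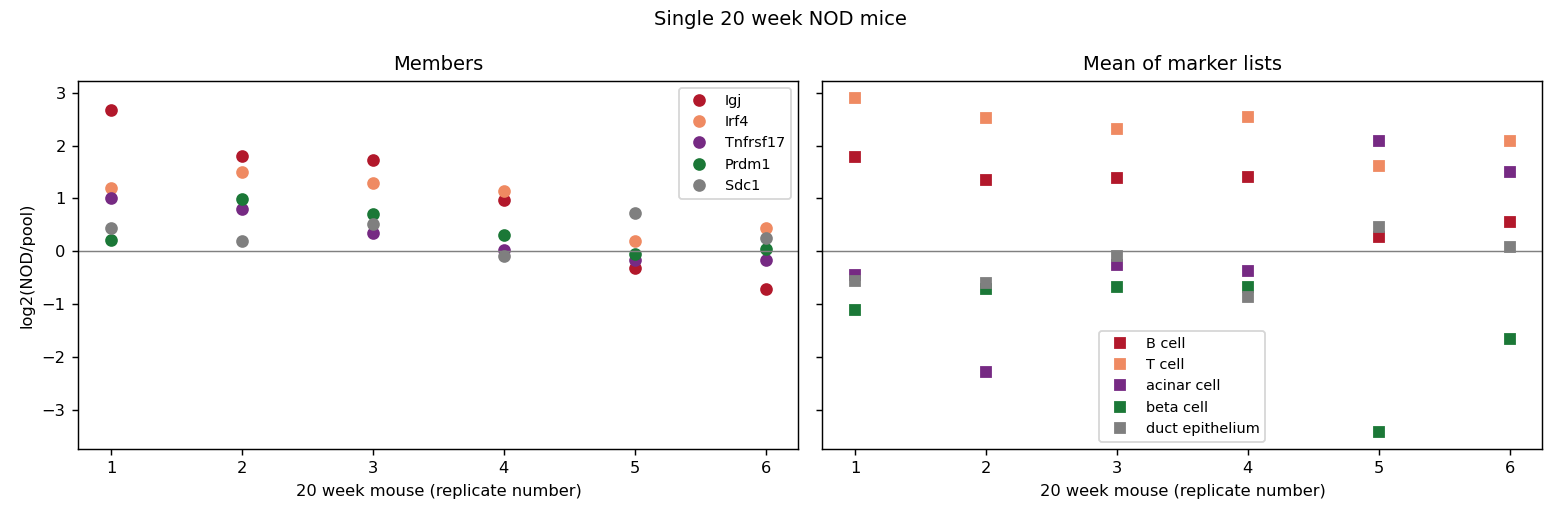
The 6 NOD mice of 20 weeks: log2(NOD/pool) of the 5 genes (left) and the mean log2 ratio of B cell, T cell, acinar, beta and duct marker lists (right). Mice 5 and 6 have the lowest B cell means (0.26 and 0.55) and the highest acinar means (2.08 and 1.51).

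The B cell markers, which mark the cells that plasma cells come from, had summed linear signals of 5327 to 17248 in NOD islets at 12 weeks, against 4475 to 5017 in the pool, and of 3647 to 14489 at 20 weeks, against 2691 to 2906. At 10 days the NOD sum of 1972 to 3937 lay below that of the pool, 4842 to 5248. At 4 weeks the ranges overlapped, with 1340 to 2377 in NOD and 1717 to 1891 in the pool. The part of B cell number in the member ratios was not tested.

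For each member, the genes whose ratio followed it most closely over the 24 arrays were named by Pearson's r, as a description. Igj went with Ighm (0.89), Fcmr (0.87), the IgM Fc receptor gene, and Rapgef6 (0.86). Irf4 went with Dsn1 (0.97), Sh2d1a (0.97) and Fasl (0.96), the last a T cell and NK cell death ligand. Tnfrsf17 went with Psd4 (0.84), Zbtb32 (0.78) and Sla2 (0.78), Prdm1 with Il1a (0.88), Katna1 (0.86) and Tnfsf4 (0.85), and Sdc1 with Abtb2 (0.93), Lrrc8b (0.91) and Trip10 (0.91). The arrays of an age share 1 pool and a slide with their neighbours, so these 24 points are not independent.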

How the data were processed

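The authors deposited scanner output of Agilent two-colour arrays (Feature Extraction, per the file headers), with mean and background intensity per spot in each channel and a log10 ratio of red over green. A deposited value table holds log2 ratios of 22088 noncontrol probes, which correlated with the scanner ratio at 0.9998 or more but had column medians of -0.182 to 0.087, so their centring is unstated. RNA was labelled from 300 ng, per the labels' protocols.

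Intensities were background-corrected (normexp, offset 50) and loess-normalized within arrays with control spots at weight 0. NOD levels come from Aquantile. Outlier spots were set missing. A probe was kept if 6 or more arrays flagged it well above background in either channel (25910 probes). The brightest probe stood for its gene (18070 genes). limma 3.58.1 in R 4.3.3 tested each age against 0, and differences between ages, over all genes, with Benjamini-Hochberg adjustment. Probes were named by RefSeq accession (27050), current symbol (4154), older symbol (589) or description (10), and the rest kept the file's name. The members and gene lists were chosen with earlier results of these data known. The p-values measure the spread between single mice. Of the listed genes, those below the filter or without a probe were not analysed here. The named genes were the members, the listed genes called at an age or of a known role in the pathway, and the 3 with the highest r to each member. The fit was tested on simulated data, and the number of arrays limits the precision.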

Additional observations from a re-analysis of the deposited data

Results flagged for a closer look

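In 48 groups of 6 ratios (1 gene at 1 age), Dixon's test picked out 7 in which 1 sample lay far from the others. By chance about 1 group in 20 is picked, but several of the 7 hold the same mouse and are not independent. At 4 weeks mouse 5 was the high sample for Igj (1.74, others -0.68 to -0.31), Ighm (3.72, others -1.19 to -0.79), Iglc3 (2.25, others -0.70 to -0.45) and Ighd (0.60, others -0.23 to -0.10). At 4 weeks mouse 4 was high for Sdc1 (1.92, others 0.04 to 0.58) and mouse 1 for Ighg2c (0.10, others -0.20 to -0.14), whose NOD signal was below background there. At 10 days mouse 5 was high for Ighg1 (0.60, others -0.11 to 0.08).

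The NOD to pool ratio differed between ages by limma's test of the difference for Igj, by 1.22 for 12 weeks minus 4 weeks and by 1.34 for 20 weeks minus 10 days, and for Sdc1, by -1.17 for 12 weeks minus 4 weeks.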

How the results depend on the processing

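Median centring of each array moved the all-gene medians to 0.38, -0.15, 0.50 and -0.21 in order of age. It ended the calls of Igj at 20 weeks (0.41, adjusted p = 0.501), of Igj for 20 weeks minus 10 days (0.51) and of Sdc1 for 12 minus 4 weeks (-0.032). It reversed uncalled values: at 10 days Tnfrsf17 (-0.22), Sdc1 (0.25) and Irf4 (-0.027), at 12 weeks Prdm1 (0.19) and Sdc1 (0.23), at 20 weeks Sdc1 (-0.037), for 12 minus 4 weeks Tnfrsf17 (-0.082), for 20 minus 12 weeks Sdc1 (-0.27), for 20 weeks minus 10 days Prdm1 (-0.22) and Sdc1 (-0.28), and in the NOD channel Sdc1 (0.043) and Prdm1 (-0.12). Igj for 20 minus 12 weeks became called at -1.81. Called genes numbered 718, 504, 634 and 921 at the 4 ages, 1093, 436 and 2265 for 12 minus 4 weeks, 20 minus 12 weeks and 20 weeks minus 10 days, and 945 and 902 in the NOD channel. Under median centring they numbered 2755, 780, 4288, 1824, 7101, 7664, 7068, 1972 and 2400, with shares higher of 98.1, 17.3, 99.3, 24.8, 99.6, 0.30, 6.28, 99.0 and 17.4%, against 40.7, 68.5, 59.5, 75.8, 49.1, 83.3, 61.7, 82.4 and 68.7%. The cause was not tested.

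Scanner log ratios gave 2907, 2122, 3252, 2988, 4355, 2575 and 5699 calls, the deposited values gave 2436, 1550, 2647, 2343, 3538, 1990 and 4683, and an offset of 10 gave 1240, 804, 1024, 1439, 1778, 726 and 3399, with 1391 in the NOD channel for 20 weeks minus 10 days. With scanner ratios and the deposited table, Igj lost its calls at 12 weeks (1.15) and 20 weeks (1.03), while it was called lower at 10 days (-1.62) and 4 weeks (-2.24). Scanner ratios reversed Prdm1 (-0.18, also in the deposited table) and Tnfrsf17 (-0.27) at 10 days, Irf4 (0.21) at 4 weeks, and Tnfrsf17 for 20 minus 12 weeks (-0.63, and -0.11 with offset 10). They added calls for Irf4 at 12 weeks (3.04) and 20 weeks (3.69), Tnfrsf17 at 12 weeks (1.26), and Sdc1 at 12 weeks (-1.06) and for 20 minus 12 weeks (1.44). With offset 10 Sdc1 was called for 20 minus 12 weeks (1.20) and 20 weeks minus 10 days (1.03). Without the filter on dim probes Igj for 12 minus 4 weeks was 1.22 and lost its call (adjusted p = 0.0646). With slide as a random block Igj at 20 weeks was 0.95, below the floor. With slide as a fixed block, 194 genes were called for 20 minus 12 weeks, and Igj was 1.11 (adjusted p = 0.43). That difference was 0.68 without 20-week mice 5 and 6; the list counts without these mice, and values within the shared slide, were chosen after seeing the data.

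Leaving out 1 mouse gave ranges for Igj of 0.70 to 1.37 at 20 weeks, 1.11 to 1.59 for 12 minus 4 weeks, 1.01 to 1.68 for 20 weeks minus 10 days, -0.48 to 0.0064 at 4 weeks and -0.42 to 0.26 for 20 minus 12 weeks. For Sdc1 they were -1.28 to -0.90 for 12 minus 4 weeks and -1.16 to -0.81 in the NOD channel for 20 weeks minus 10 days, for Prdm1 at 10 days -0.017 to 0.14, and for Tnfrsf17 for 20 minus 12 weeks -0.054 to 0.18. The replicate block changed no call of a member (Igj for 12 minus 4 weeks, adjusted p = 0.0488). The numbers do not pair the mice, as deviations of same-numbered arrays had a median correlation of -0.10. Faint signal over background limits Irf4 and Tnfrsf17.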
